A study of Homo sapiens with 6 samples.

Results

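The TAM receptors AXL, TYRO3 and MERTK and their ligands GAS6 and PROS1 were examined in L3.6pl cells, a human pancreatic ductal adenocarcinoma line, sorted by flow cytometry on surface L1CAM, a cell adhesion molecule. These 5 genes were 5 of the 19469 rows of the gene count table and were taken by symbol. The set was selected on earlier results of the same comparison, so the difference of each of its members between the sorted fractions is given below as a description, without a test. Libraries came from 3 L1high samples (labelled L1CAM_POSITIVE) and 3 L1low samples (labelled L1CAM_NEGATIVE), all from untreated cells grown in the same serum-containing medium. The labels name 1 line in every sample, written L3.6PL in the titles and L6.6pl in the cell line field, and they do not say whether the replicates came from separate cultures, so that p-values measure the spread between these libraries, which may be technical.

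Counts assigned to genes ranged from 16334610 to 21064685 per library. L1CAM itself reached 84.0, 69.8 and 89.5 CPM (counts per 1000000 counts of the library, scaled between libraries by TMM factors) in L1high and 17.7, 23.7 and 20.0 CPM in L1low, so the sorted gene followed the labels in all 6 libraries. L1low is therefore a fraction with less L1CAM RNA, not one without it. The 7 ductal epithelial markers (KRT7, KRT8, KRT18, KRT19, EPCAM, CDH1 and MUC1) all had rows, as the labelled tissue would have. In a bulk library, fewer cells carrying a transcript and less of it per cell cannot be told apart, and this holds for every difference below.

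TAM receptors are receptor tyrosine kinases with immunoglobulin-like and fibronectin type III domains outside the cell. They are activated by GAS6 and protein S (the product of PROS1), vitamin K-dependent proteins whose Gla domains bind phosphatidylserine on dying cells, platelets or vesicles, so that the ligand bridges the exposed lipid and the receptor. In macrophages the system drives clearance of apoptotic cells and dampens interferon signalling, whereas in carcinomas AXL is best known for invasion, a mesenchymal state and tolerance of kinase inhibitors.

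AXL RNA was higher in L1low, with the largest log2 fold change of the 5 members. TYRO3, GAS6 and PROS1 had nearly the same mean level in both fractions, and MERTK was close to the limit of what the table holds. Over all genes, 1548 of 19467 tested (7.95%) were called in either direction at an adjusted p under 0.05. Calls came from edgeR's quasi-likelihood fit, with p adjusted by Benjamini-Hochberg. Higher calls numbered 891 (4.58%) and lower calls 657 (3.37%). Because this comparison chose the set, no call of a member is read as a result.

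AXL (ENSG00000167601) binds GAS6 with high affinity and lies on the plus strand at chr19:41219223-41261766 (GRCh38), with 5134 bases of merged exons over 5 annotated transcripts. RefSeq (GRCh38.p14) lists starts for it at 2 positions, and the 250 bases before each are shown because they are the stretches in which regulators of AXL would first be sought. The first window, chr19:41218973-41219222 on the plus strand, had a GC content of 64.4%, and the second, chr19:41226505-41226754, had 54.4%, beside a median of 58% over 35116 windows of the same length. The first lies just outside the AXL gene and the second inside its span, and neither overlapped an annotated exon. Capitals mark matches on either strand to the Sp1 box GGGCGG, the AP-1 motif TGANTCA, the TEAD motif GGAATG, the hypoxia response core ACGTG and the ZEB-type E-box CAGGTG.
AXL first start: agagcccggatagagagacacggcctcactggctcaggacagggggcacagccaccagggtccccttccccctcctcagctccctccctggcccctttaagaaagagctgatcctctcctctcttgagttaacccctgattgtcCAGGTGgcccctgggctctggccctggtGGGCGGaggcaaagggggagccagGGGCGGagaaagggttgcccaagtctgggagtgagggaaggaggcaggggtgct
AXL second start: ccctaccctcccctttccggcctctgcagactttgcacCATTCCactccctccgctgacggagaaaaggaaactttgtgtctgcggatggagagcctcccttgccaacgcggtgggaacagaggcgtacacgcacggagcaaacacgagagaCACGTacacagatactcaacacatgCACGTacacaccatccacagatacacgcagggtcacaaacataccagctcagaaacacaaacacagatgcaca
The first window held GGGCGG at 78 and 54 bases before the start and CAGGTG at 106 bases. The second held CATTCC, the TEAD motif read on the opposite strand, at 212 bases, and CACGT, the hypoxia core on the opposite strand, at 98 and 73 bases. Such letters are common, since 42.6% of all windows held the Sp1 box, 17.5% the E-box, 18.5% the hypoxia core and 11.9% the TEAD motif, while TGANTCA, absent from both AXL windows, was in 6.57%. These are matches of letters only, and no binding was measured.

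The reads on AXL numbered 470, 494 and 396 in the L1high libraries and 1225, 1107 and 1100 in the L1low libraries. Scaled for depth, its level was 22.2, 24.0 and 24.1 CPM in L1high against 67.4, 61.7 and 62.1 CPM in L1low. The groups stood well apart, with the lowest L1low library above the highest L1high library, and within each group the libraries were tightly clustered, with a coefficient of variation of 4.76% in L1high and 5.02% in L1low. The mean went from 23.4 ± 1.12 CPM (SD, n = 3) to 63.7 ± 3.20 CPM (SD, n = 3), a 2.72-fold higher level (log2 fold change 1.44, SE 0.08). Only 32 genes of the table had a larger log2 fold change. Across 13 alternative fits, which included leaving out each library, the AXL difference lay between 1.40 and 1.47 on the log2 scale.

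A long noncoding RNA gene without a symbol, ENSG00000269652, lies inside the AXL span on the opposite strand at chr19:41221426-41222051 and shares 67 exon bases with AXL. It had 12, 16 and 5 counts in L1high and 35, 21 and 25 counts in L1low, and its difference was near that of AXL itself (log2 fold change 1.41, SE 0.37). The libraries were stranded, but the strand setting of the counting is not given in the sources used here. Reads on the 67 shared bases, and reads counted to this gene, therefore cannot be told from reads of AXL. The shared bases are few beside the 5134 merged exon bases of AXL. The counts of ENSG00000269652 were below those of AXL in every library. Like MERTK below, it exceeded 1 unscaled CPM in L1low libraries only, so it entered the table through them.

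TYRO3 (ENSG00000092445, chr15:41557675-41583589, plus strand), a TAM receptor best known from the nervous system and platelets, was at 24.0, 22.2 and 25.6 CPM in L1high and at 22.2, 23.5 and 24.2 CPM in L1low. The L1low libraries lay inside or at the edge of the L1high range. Means were 23.9 ± 1.67 and 23.3 ± 1.01 CPM (SD, n = 3 each; log2 fold change -0.04, SE 0.09), and the alternatives gave -0.09 to 0.02, the positive value arising without L1high replicate 3. Its pseudogene TYRO3P, whose near-identical sequence could take or lend reads, was at 3.52 CPM in L1high and 2.87 CPM in L1low (log2 fold change -0.30).

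MERTK (ENSG00000153208, chr2:111898607-112029561, plus strand), the TAM receptor of phagocytes, was barely present, with 15, 18 and 15 counts in L1high and 24, 20 and 22 counts in L1low. Exact Poisson 95% intervals, which cover counting error only, ran from 8.40 to 24.7 for a count of 15 and from 15.4 to 35.7 for a count of 24. These intervals are wide and overlap, but they are not scaled for depth and are not a test between libraries. Scaled levels were 0.707, 0.876 and 0.914 CPM in L1high and 1.32, 1.11 and 1.24 CPM in L1low. These groups did not overlap, which was also true, in the same direction, of 2950 genes (15.2%) of the table. The difference, given without a test, had a log2 fold change of 0.56 with a wide SE of 0.29. The alternatives ran from 0.45, without L1high replicate 1, to 0.64. Every row of the table exceeded 1 unscaled CPM in at least 2 libraries, and MERTK did so in 0 L1high and 3 L1low libraries, so it entered through L1low alone and had to be higher there. RTRAFP1, a processed pseudogene in a MERTK intron on the opposite strand, was counted separately at 22.5 CPM in L1high and 22.0 CPM in L1low.

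GAS6 (ENSG00000183087, chr13:113820549-113864076, minus strand), the ligand that engages all 3 receptors, was at 46.6, 40.4 and 50.7 CPM in L1high and 42.3, 43.8 and 45.0 CPM in L1low. All L1low values fell within the L1high range, and L1high replicates 2 and 3 marked its ends. Means were 45.9 ± 5.20 and 43.7 ± 1.34 CPM (SD, n = 3 each; log2 fold change -0.07, SE 0.09), with alternatives from -0.15 without L1high replicate 2 to 0.02 without L1high replicate 3. GAS6-AS1, an antisense RNA that shares 421 exon bases with GAS6, was at 9.75 and 9.49 CPM (log2 fold change -0.04). Although the libraries were stranded, the strand setting of the counting is unknown. Reads on the shared bases, and reads counted to GAS6-AS1, therefore cannot be told from reads of GAS6.

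PROS1 (ENSG00000184500, chr3:93873051-93980003, minus strand), which encodes the anticoagulant protein S and signals through TYRO3 and MERTK, was at 14.0, 13.9 and 12.4 CPM in L1high and 14.3, 14.5 and 11.9 CPM in L1low. Replicate 3 was the lowest of each fraction, and the groups overlapped. The means of 13.4 ± 0.890 and 13.6 ± 1.44 CPM (SD, n = 3 each) differed by 0.01 on the log2 scale (SE 0.12), and the alternatives, from -0.04 without L1low replicate 2 to 0.11 without L1low replicate 3, kept its sign in 10 of 13 cases. Reads of PROS1 could also be shared with its pseudogene PROS2P, which was not analysed here.

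**Figure D1:**
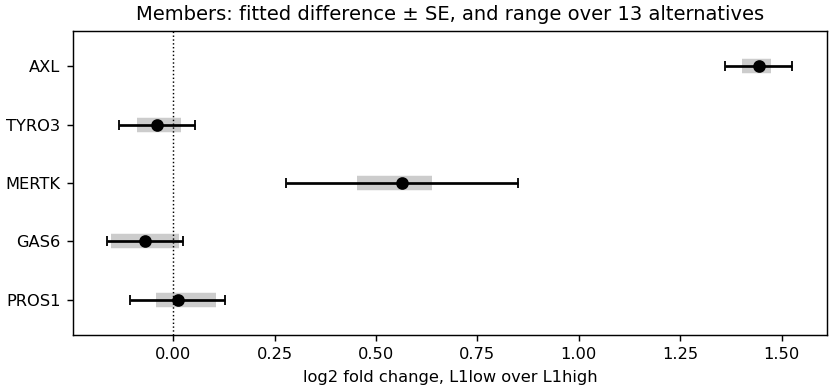
Fitted log2 fold change of each gene, L1low over L1high, with bars of 1 SE and a grey band for the range over 13 alternative fits. AXL lies at 1.44 with a band from 1.40 to 1.47, MERTK at 0.56 with a wide error, and TYRO3, GAS6 and PROS1 lie close to 0 with bands that include 0.

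Levels of different genes were compared per kilobase of merged exons (RPKM). In L1high the order was GAS6 at 7.63 ± 0.865 RPKM, AXL at 4.57 ± 0.217, PROS1 at 2.55 ± 0.169, TYRO3 at 2.22 ± 0.155 and MERTK at 0.201 ± 0.0266 (SD, n = 3). The PROS1 and TYRO3 values overlapped between libraries in L1high, and the other neighbours did not. In L1low AXL came first at 12.4 ± 0.623 RPKM, ahead of GAS6 at 7.27 ± 0.224, PROS1 at 2.58 ± 0.273, TYRO3 at 2.16 ± 0.0940 and MERTK at 0.297 ± 0.0252. PROS1 and TYRO3 were again next to each other, with all PROS1 libraries above the TYRO3 libraries. The lowest PROS1 library, at 2.26 RPKM, was only just above the highest TYRO3 library, at 2.24 RPKM. The place of GAS6 depended on its length: per kilobase of its longest transcript (2646 bases, against 6015 merged exon bases) GAS6 was at 17.4 RPKM in L1high and 16.5 RPKM in L1low, above AXL at 4.97 and 13.5 RPKM in both fractions.

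Within the receptors, the make-up of the RNA differed between the fractions. AXL held 64.3, 67.3 and 64.4% of receptor RNA per length in L1high and 84.7, 83.0 and 82.6% in L1low, while TYRO3 went from a mean of 31.8% to 14.6% and MERTK from 2.87% to 1.99%. The AXL shares did not overlap between the fractions (65.3 ± 1.70% against 83.4 ± 1.08%, SD, n = 3 each), and a share within a library does not depend on scaling between libraries. With the longest transcript as the length, the AXL share was 60.8% in L1high and 80.7% in L1low. TYRO3 had a smaller share in L1low although its own level hardly differed. The shares thus restate the AXL difference, from the comparison that chose the set, and are not a separate result.

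The summed receptor RNA was 6.99 ± 0.292 RPKM in L1high and 14.9 ± 0.560 RPKM in L1low, while the summed ligand RNA was 10.2 ± 0.749 and 9.84 ± 0.177 RPKM (SD, n = 3 each). The receptor sum per ligand sum was thus 0.688 in L1high and 1.51 in L1low. With the longest transcripts the same ratio was 0.385 and 0.818, and without length scaling it was 0.814 and 1.54, so whether receptor RNA exceeded ligand RNA in L1low depended on the length used, while the ratio was higher in L1low on all 3 scales. AXL RNA per GAS6 RNA stood at 0.604 in L1high and 1.71 in L1low on merged exons, and at 0.289 and 0.819 on longest transcripts. Since ligand RNA hardly differed, these receptor-to-ligand ratios also restate the AXL difference. The balance between the ligands hardly differed, with PROS1 at 0.338 ± 0.0564 of the GAS6 level in L1high and 0.355 ± 0.0459 in L1low (SD, n = 3 each).

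**Figure D2:**
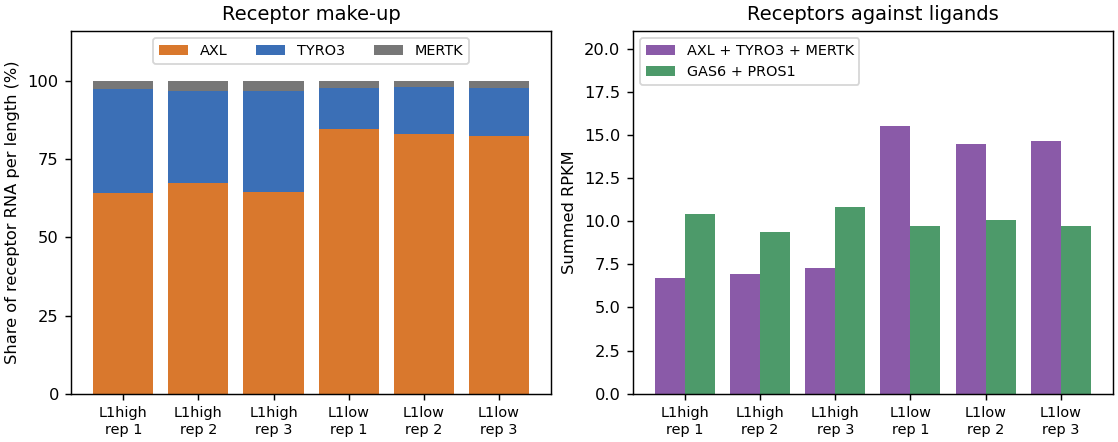
Left, share (%) of TAM receptor RNA per kilobase of merged exons held by AXL, TYRO3 and MERTK in each library. Right, summed RPKM of the 3 receptors and of the 2 ligands in each library, where the receptor bar is below the ligand bar in all L1high libraries and above it in all L1low libraries.

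Among receptor tyrosine kinases, a list of 58 genes chosen after the values above were seen, 35 had a row, and AXL had the largest log2 fold change of them. By RPKM AXL ranked 13 of 35 in each L1high library and 7 or 8 in the L1low libraries. On longest-transcript lengths its mean rank was 17 in L1high and 10 in L1low. The nearest kinases by log2 fold change were FGFR2, a fibroblast growth factor receptor, at 1.37 (SE 0.13), and EPHA5, an ephrin receptor, at 1.34 (SE 0.28), both from lower levels than AXL. EPHA5 was under 1 CPM in every L1high library and over it in every L1low library, so it too entered the table through L1low and had to be higher there. The median over the 35 genes was 0.19, beside -0.01 over all genes.

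By Pearson's r of log2 CPM over the 6 libraries, a description among 17022 genes that shares depth and scaling, the genes most like AXL were TXNIP, the thioredoxin-interacting protein (r = 0.999), PLIN2, which coats lipid droplets (r = 0.999), and VANGL2, a planar polarity protein (r = 0.998). TXNIP stood at 176, 184 and 179.9 CPM in L1high and at 341, 331 and 321 CPM in L1low, in 2 separate levels as AXL did. With 2 such levels, any gene that separates the fractions evenly reaches a high r. TYRO3 was closest to GNPTG (0.993), IMPDH1 (0.988) and NDUFB7 (0.987), GAS6 to TCOF1 (0.994), VDAC1P6 (0.993) and RHOT2 (0.993), PROS1 to ZNF529 (0.993), CSNK1A1P1 (0.993) and TMEM64 (0.990), and MERTK to ENSG00000278948 (0.998), SLC27A1 (0.996) and HOXC13 (0.991). For TYRO3, GAS6 and PROS1, which hardly differed between the fractions, these likenesses followed differences between single libraries, such as the low values of L1high replicate 2 for TYRO3 and GAS6. MERTK had only 15 to 24 counts per library and entered the table through L1low alone, so its r values rest on few counts.

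Around the members, 12 gene lists, drawn up with earlier results of these data known, held 135 measured genes. They cover the TAM system, YAP and TAZ targets, and mesenchymal and epithelial genes. Of the 135 genes, 33 (24.4%) were called, beside 7.95% of all genes. Because of how the lists were drawn up, nothing is read from that share. Of the 33, 26 were higher and 7 lower in L1low. The median log2 fold change of the 135 was 0.07, beside -0.01 over all genes. ITGB3 and CCN2 were the 2 listed genes with a larger log2 fold change than AXL. Of the 33 calls, 18 held under all 13 alternatives, 14 were lost when L1high replicate 1 was left out, 15 when L1low replicate 2 was, and all 33 kept their direction. The calls that were lost in one of these ways are those of ATP11A, CLDN4, CLDN7, DOCK1, EPCAM, FOS, FOSL2, LGALS3, PIK3R1, PRRG2, PTK2, SP1, STAT2, TIMP3 and VAV1, with LGALS3 the one of them that held without L1high replicate 1 (adjusted p = 0.029). PRRG2 was lost whichever library was left out, CLDN4, EPCAM, FOS, TIMP3, VAV1, DOCK1 and SP1 were lost without at least 1 further library, and PRRG2 and VAV1 were also lost with DESeq2.

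**Figure D3:**
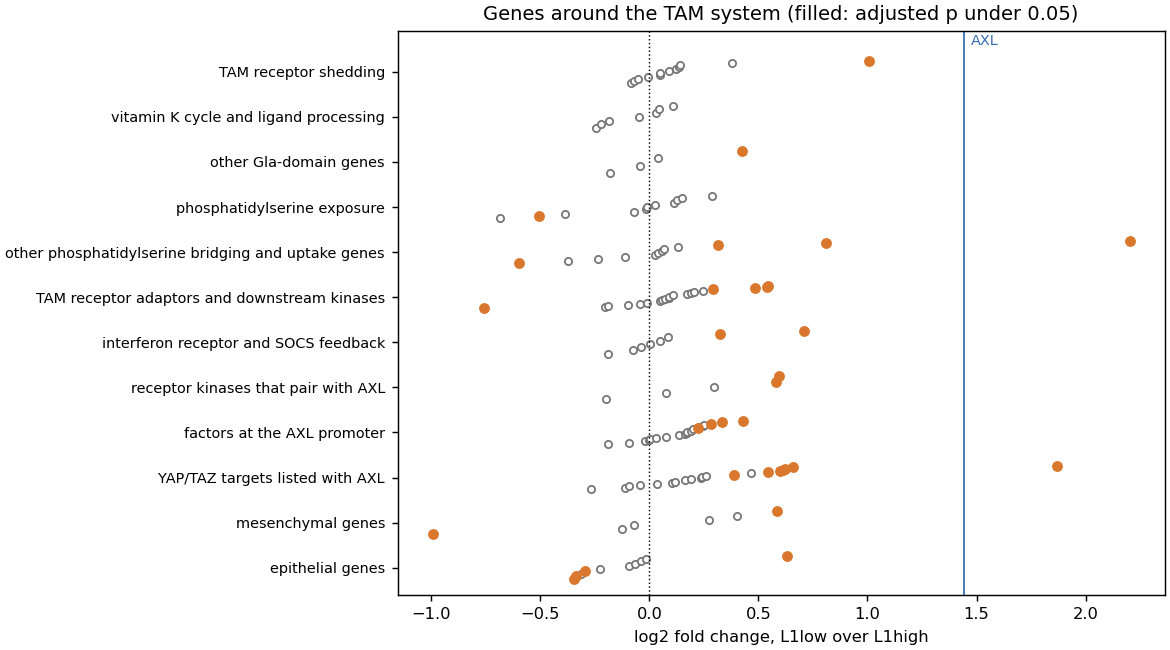
Log2 fold change, L1low over L1high, of the 135 measured genes of 12 lists, 1 point per gene, filled where the adjusted p was under 0.05, with points shifted vertically for visibility and a line at AXL. ITGB3 and CCN2 are the points to the right of AXL.

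AXL is cut from the cell surface by the metalloproteases ADAM10 and ADAM17, and its remaining stub by gamma-secretase. Of 12 shedding genes measured, 11 were not called, among them ADAM10 at 142 ± 10.1 and 135 ± 12.2 CPM, ADAM17 at 74.2 ± 6.66 and 80.9 ± 6.97 CPM and the gamma-secretase subunit APH1A, the highest per length, at 152 ± 18.1 and 167 ± 6.78 CPM (SD, n = 3, L1high then L1low). TIMP3, an inhibitor of these metalloproteases, rose from 1.37 ± 0.277 to 2.78 ± 0.477 CPM (log2 fold change 1.01, SE 0.24, adjusted p = 0.026, 0.054 without L1high replicate 1 and 0.110 without L1low replicate 2). The list's median was 0.07.

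GAS6 and protein S need gamma-carboxylation in the vitamin K cycle. None of the 7 genes of that cycle and of ligand processing was called at an adjusted p under 0.05 by edgeR, and the list's median was -0.05. GGCX, the carboxylase, was at 80.3 ± 2.70 and 86.6 ± 2.97 CPM, and VKORC1, the vitamin K epoxide reductase, at 81.2 ± 3.72 and 68.4 ± 5.26 CPM (SD, n = 3, L1high then L1low; log2 fold change -0.25, adjusted p = 0.080). Of 12 other genes with Gla domains 4 had a row, and PRRG2, a transmembrane Gla protein, was the 1 called, at 9.02 ± 0.350 and 12.1 ± 0.773 CPM (log2 fold change 0.42, SE 0.11, adjusted p = 0.043, 0.170 without L1low replicate 2). The median of those 4 was -0.00.

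The exposed phosphatidylserine that TAM ligands bridge depends on scramblases and flippases. Of 11 measured genes 1 was called, the flippase ATP11A, which fell from 37.8 ± 3.28 to 26.5 ± 2.18 CPM (log2 fold change -0.51, SE 0.10, adjusted p = 0.0091, 0.062 without L1high replicate 1 and 0.053 without L1low replicate 2). The scramblase ANO6 was not called at 33.8 ± 0.513 and 36.9 ± 1.88 CPM, nor was BSG, a chaperone of scramblase complexes and the highest of the list, at 626 ± 28.9 and 622 ± 19.1 CPM. The list's median was -0.01.

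Other routes of phosphatidylserine recognition and uptake had 12 measured genes, with 3 higher, 1 lower, 8 not called and a median of 0.05. ITGB3, the beta chain of the integrin that binds the bridging protein MFGE8, rose from 1.63 ± 0.0278 to 7.54 ± 0.224 CPM (log2 fold change 2.20, SE 0.16, adjusted p = 7.4e-06). LRP1, a large endocytic receptor, rose from 92.5 ± 14.7 to 162 ± 3.13 CPM (0.81, SE 0.10, adjusted p = 0.00045), and DOCK1, an exchange factor for RAC1, had a log2 fold change of 0.31 (SE 0.07, adjusted p = 0.020, 0.086 without L1high replicate 1). LGALS3, a galectin that can act as a MERTK ligand, fell by 0.60 on the log2 scale (SE 0.12, adjusted p = 0.012, 0.070 without L1low replicate 2). RAC1 itself, the highest of the list per length, was not called at 156 and 163 CPM.

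Downstream of the receptors, 20 adaptors and kinases were measured, with 4 higher, 1 lower, 15 not called and a median of 0.09. SHC1, an adaptor that links receptors to RAS, rose from 419 ± 21.4 to 609 ± 23.1 CPM (log2 fold change 0.54, SE 0.06, adjusted p = 0.00031), and SRC rose from 36.6 ± 2.00 to 51.2 ± 0.897 CPM (0.49, SE 0.08, adjusted p = 0.0028). PIK3R1, a regulatory subunit of PI3 kinase, was higher by 0.55 (SE 0.11), and PTK2, focal adhesion kinase, by 0.29 (SE 0.06). VAV1, a haematopoietic exchange factor with means of 3.86 CPM in L1high and 2.26 CPM in L1low, fell by 0.76 (SE 0.20). Without L1high replicate 1 these 3 were not called (adjusted p = 0.078 for PIK3R1, 0.091 for PTK2 and 0.126 for VAV1). GRB2, AKT1 and AKT2 were not called. Of 8 genes of the interferon receptor and SOCS loop, SOCS3, a feedback inhibitor of cytokine signalling, rose from 79.1 ± 6.17 to 129 ± 2.40 CPM (0.71, SE 0.07, adjusted p = 0.00012), STAT2 was higher by 0.32 (SE 0.07, adjusted p = 0.011, 0.067 without L1high replicate 1), the other 6 were not called and the median was 0.03.

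Of the receptor kinases known to form complexes with AXL, 5 of 7 had a row and their median log2 fold change was 0.29. EGFR rose from 295 ± 10.1 to 445 ± 20.9 CPM (log2 fold change 0.59, SE 0.06, adjusted p = 0.00014), and MET, the hepatocyte growth factor receptor, from 44.6 ± 1.18 to 66.7 ± 2.75 CPM (0.58, SE 0.07, adjusted p = 0.00051), while the other 3 were not called.

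Among 20 factors reported to act at the AXL promoter, 4 were called, all higher, and the median was 0.17. FOSB, an AP-1 subunit, rose from 2184 ± 87.7 to 2937 ± 104 CPM (log2 fold change 0.43, SE 0.06, adjusted p = 0.00083), and FOS, FOSL2 and SP1 were higher by 0.23, 0.33 and 0.28 (SE 0.06, 0.07 and 0.06). YAP1, WWTR1 (TAZ) and the 4 TEAD genes were not called. AXL is itself listed among targets of YAP and TAZ, and of 20 other such targets 7 were higher (4.58% of all genes were), none was lower and 13 were not called, with a median of 0.24. CCN2, a matricellular protein, rose from 21.3 ± 2.14 to 77.7 ± 1.19 CPM (1.87, SE 0.09, adjusted p = 2.9e-06), and NT5E, AMOTL2, F3, PTPN14, IGFBP3 and CRIM1 followed between 0.39 and 0.66. CCN1, the highest of the list per length and a standard target of the pathway, was not called at 444 and 455 CPM. FOS (adjusted p = 0.178) and SP1 (0.089) were not called without L1low replicate 2, nor was FOSL2 without L1high replicate 1 (0.067).

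AXL is often measured as part of a mesenchymal state. Of 6 mesenchymal genes measured, VIM, the intermediate filament vimentin, rose from 370 ± 8.40 to 555 ± 9.33 CPM (log2 fold change 0.58, SE 0.06, adjusted p = 7.9e-05), SNAI1, a repressor that drives epithelial-mesenchymal transition, fell from 10.6 ± 1.06 to 5.31 ± 0.676 CPM (-0.99, SE 0.14, adjusted p = 0.0014), the other 4 were not called and the median was 0.10. CDH2, ZEB2 and TWIST2 had no row in the table analysed here. Of 10 epithelial genes, KRT19 rose by 0.63 (SE 0.07), EPCAM, CLDN4 and CLDN7 fell by 0.30, 0.35 and 0.33 (SE 0.08, 0.08 and 0.07), 6 including CDH1 were not called, and the median was -0.16. Without L1high replicate 1, EPCAM (adjusted p = 0.165), CLDN4 (0.115) and CLDN7 (0.099) were not called. Calls in both lists thus went in both directions beside the higher AXL. Among the 10 epithelial genes KRT19 was the 1 with a log2 fold change over 0, against 3 of the 6 mesenchymal genes.

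Markers of other cells that express TAM genes were set beside the AXL values. Of 10 macrophage markers 1 had a row, CD68, with 8.42 to 8.81 CPM in L1high and 9.37 to 11.3 CPM in L1low, while the defining markers PTPRC, CD14 and CSF1R had none. Of 8 fibroblast markers 3 had a row (LUM, PDPN and COL3A1), and DCN, FAP, THY1, PDGFRB and COL6A3 had none. The summed level was 86.4 to 97.8 CPM in L1high and 144 to 167 CPM in L1low, nearly all of it LUM. LUM and PDPN were called higher in L1low by edgeR (log2 fold change 0.78 and 1.17, adjusted p = 0.00013 and 0.00017), and COL3A1 was not called. Of 5 endothelial markers only PECAM1 had a row, at 11.3 to 11.9 and 13.2 to 14.7 CPM. Of the 9 genes of sorting and handling stress, 4 were called higher (FOS, FOSB, EGR1 and ATF3). The other 5 (JUN, DUSP1, HSPA1A, HSPA1B and IER3) were not called, with log2 fold changes from -0.05 to 0.13. FOS and FOSB are also among the promoter factors above. The 9 genes summed to 7442 to 7887 CPM in L1high and 9186 to 9702 CPM in L1low. These sums were higher in L1low together with AXL, and their part in the AXL difference was not tested.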

How the data were processed

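Sorted cells of the L3.6pl line were sequenced as poly(A) RNA in 3 L1high and 3 L1low stranded libraries. The authors aligned trimmed reads to GRCh38 with BWA, an aligner that does not split reads at exon junctions, and deposited a table of raw counts per Ensembl gene made with featureCounts (Ensembl release 94). Versions and the strand and multi-mapping settings of the counting are not given in the sources used here. Their processing notes also name DESeq2. The study's own comparison leaves out L1high replicate 3 without a stated reason, and all 6 libraries were used here.

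Counts were fitted with edgeR 4.0.16 (R 4.3.3) by the quasi-likelihood test, with TMM factors, its default expression filter and Benjamini-Hochberg adjustment over 19467 genes, and a gene was called at an adjusted p under 0.05. The common biological coefficient of variation was 0.0926. On data simulated from these libraries, 186 of 200 genes given a log2 change of 1 up or down were recovered, and 12 of 198 calls were of unchanged genes. The simulation gave every gene the same dispersion and drew the libraries independently, so its rates need not hold for the real data. CPM was divided by merged exon length from GENCODE 44 (19344 of 19469 rows matched) to give RPKM. Alternatives were each library left out, a replicate block, DESeq2 1.42.0, other scalings and filters, and other gene lengths.

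The members and all lists were chosen with earlier results of these data known. Genes named were the members, L1CAM, overlapping genes and pseudogenes, the 3 genes most correlated with each member (mean log2 CPM at least 1, prior count 2), and in each list every gene called and the highest per length. Genes named after their values were seen were ADAM10, ADAM17, GGCX, ANO6, GRB2, AKT1, AKT2, YAP1, WWTR1, the TEAD genes, CDH1 and the receptor tyrosine kinases. Promoter windows came from RefSeq.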

Additional observations from a re-analysis of the deposited data

How the results depend on the processing

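The log2 fold change of AXL lay between 1.40 and 1.47 over the 13 alternatives, given as a description since this comparison chose it. The count of calls over all genes moved with single libraries. It lay between 627, without L1low replicate 2, and 1473 when 1 library was left out, with 674 without L1high replicate 1, beside 1548 with all 6. The number of listed pathway genes called lay between 18, without L1low replicate 2, and 30, with 19 without L1high replicate 1, beside 33. With the replicate number as a block, 2363 genes were called (1220 higher, 1143 lower in L1low), and 38 pathway genes. The methods state no pairing, so the numbers were not taken as pairs in the main fit. Deviations of same-numbered libraries from their group means correlated at 0.117, 0.0967 and 0.292, the highest value for each L1low library. L1high replicate 2 correlated slightly better with L1low replicate 1 (0.106) than with its own number. Whether the numbers mark pairs cannot be told from these values. DESeq2 called 1590 genes. With library-size scaling, 822 genes were higher and 726 lower. The AXL share of receptor RNA was 60.8% in L1high and 80.7% in L1low with longest-transcript lengths, and 48.6% and 72.2% without length scaling, and the ratio of PROS1 to GAS6 was 0.228 and 0.240 with longest-transcript lengths. Of 682 recomputed values, 607 stayed on the same side of their threshold or close to the main value, 64 calls of single genes were lost and none reversed. Another 11 moved further, among them the counts of calls without L1high replicate 1 and without L1low replicate 2. Depth limits MERTK most, at 48 counts in all L1high and 66 in all L1low libraries.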

Other observations

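Other receptor tyrosine kinases were measured in the same libraries. Of the 35 measured, 11 were higher in L1low, AXL among them, and 2 were lower, beside 4.58% of all genes called higher and 3.37% called lower. EPHA5 among the higher passed 1 CPM in L1low libraries only and FLT1 among the lower in L1high libraries only, so the filter of the table had set their directions. EPHA2, an ephrin receptor and the highest of the family per length, rose from 169.8 ± 23.5 to 241 ± 7.51 CPM (SD, n = 3 each; log2 fold change 0.51, SE 0.09), and FGFR3 rose from 41.1 ± 5.77 to 62.3 ± 2.14 CPM (0.60, SE 0.10). EPHB2, EGFR, MET and PTK7 were higher by 0.61, 0.59, 0.58 and 0.42. NTRK2, a neurotrophin receptor, fell by 0.88 on the log2 scale. Of the 12 kinases called besides AXL, 8 were called under all 13 alternatives, and IGF1R, FLT1, EPHA5 and EPHB3 were not, each being lost without L1high replicate 1 and without L1low replicate 2. This list was chosen after the members' values were seen and includes AXL, so nothing is read from its counts of calls beside the shares over all genes.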
